A study of Rattus norvegicus with 24 samples.

Results

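Cd34 (ENSRNOG00000045558) was 1 gene of the 32883 in the table of normalized gene counts, and it was found by its symbol in 24 rat urethral samples. It was chosen by its measured normalized counts at 3d, which stood higher in both cell-treated groups although the VEGF vector alone carries a CD34 tag. Its 3d values are therefore a description, and tests of Cd34 itself are given only at 7d.

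Female Sprague-Dawley rats of 12 weeks underwent simulated vaginal delivery (SVD), a model of birth injury in which the pudendal nerve is crushed and the vagina distended. They then received saline, allogeneic mesoangioblasts (MABsallo) or the same cells overexpressing VEGF (MABsallo-VEGF) through the aorta, and the urethra was taken 3d or 7d later, with 4 samples in each of the 6 groups. Mesoangioblasts are vessel-associated muscle stem cells, here sorted from hind-limb muscle on alkaline phosphatase. An eGFP and luciferase vector served to track the cells of both groups, though the authors also call MABsallo untransduced. The methods do not settle whether the cells of these samples carried it. The VEGF line carried VEGF165 joined to a truncated CD34 under the SFFV promoter. Its samples carry the genotype label VEGF OE while the others carry WT. All animals had SVD, so no uninjured urethra enters the comparison. The cells came from a line of an allogeneic donor, and the samples are whole urethra in which host and injected cells cannot be told apart. At 7d, replicates 6 and 7 of MABsallo-VEGF are labelled as recovered. Nothing in the labels says that each sample was a separate animal, and if they were not, the p-values measure only the spread between these samples.

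CD34 is a sialomucin, a heavily glycosylated surface protein of haematopoietic progenitors and small-vessel endothelium that is also found on adventitial fibroblasts, on muscle satellite cells and on mast cells. With podocalyxin and endoglycan it forms the CD34 family, whose members bind adaptor proteins inside the cell. Their dense sugar chains can either hinder or support contact between cells.

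Reads counted on genes ranged from 2170695 to 10166052 per sample, with a median of 5246798. Samples of the same group differed beyond what counting alone gives (chi-square divided by its degrees of freedom, 9.78 to 133 in 36 pairs). The smooth muscle and striated muscle lists fixed to check the tissue were present in each sample, with lowest sums of 22471 and 29702 normalized counts, and that of the urothelium list was 772. A pair of 3d libraries stood apart from their groups. On the first principal component computed without Cd34 (70.7% of the variance), saline replicate 6 scored 54.5 against -52.2 to -6.5 in the other saline 3d samples, and MABsallo-VEGF replicate 4 scored 0.7 against 57.2 to 75.2. Values over the 22 samples without them are given beside the main results. These libraries were set aside for their expression values, Cd34 among them, and a clearer difference without them is not independent of that choice.

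At 3d after saline, the normalized count of Cd34 was 771.3 in replicate 6, 15.68 in replicate 8, 32.16 in replicate 9 and 21.11 in replicate 10. After MABsallo it was 468.6, 1373, 803.2 and 173.6 in replicates 1 to 4. After MABsallo-VEGF it was 248.7, 783.4, 373.3 and 57.88 in replicates 1 to 4. Each of the 8 cell-treated samples lay above saline replicates 8, 9 and 10, and saline replicate 6 lay above 5 of the 8. At 7d the values were 3.382, 14.94, 10.05 and 6.289 after saline, 12.39, 9.934, 3.336 and 16.6 after MABsallo, and 14.51, 11.41, 18.62 and 3.152 after MABsallo-VEGF. The 3 groups of 7d overlapped completely, and the recovered replicates 6 and 7 of MABsallo-VEGF lay between the others.

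**Figure D1:**
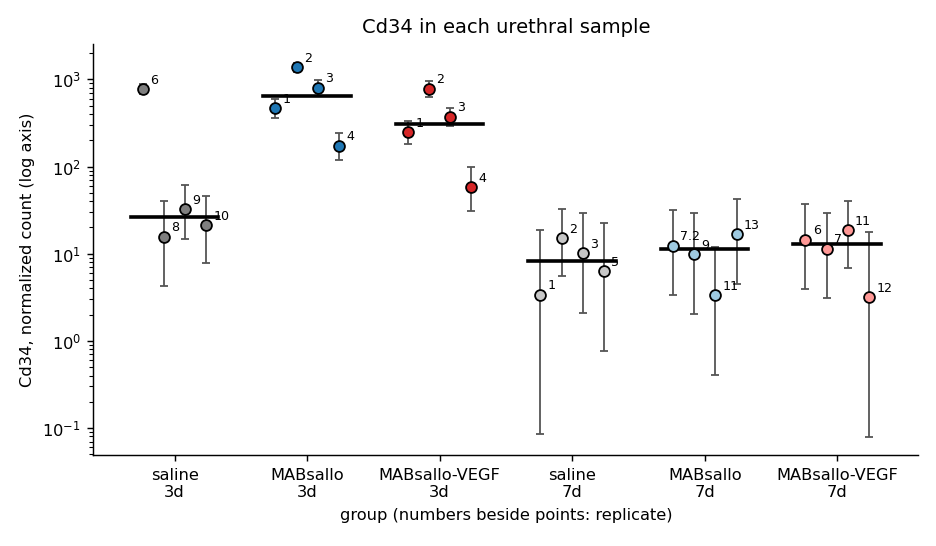
Normalized count of Cd34 (log axis) in each sample by group, with points for samples, numbers for replicates, thin bars for exact 95% Poisson intervals of the reads and thick lines for group medians. The cell-treated 3d samples lie between 57.88 and 1373, saline 3d replicate 6 lies at 771.3 among them, and the 12 samples of 7d lie between 3.152 and 18.62.

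In order of group means, Cd34 was 705 ± 515 normalized counts (SD, n = 4) in MABsallo 3d, 366 ± 307 (n = 4) in MABsallo-VEGF 3d and 210 ± 374 (n = 4) in saline 3d. At 7d it was 11.9 ± 6.55 in MABsallo-VEGF, 10.6 ± 5.55 in MABsallo and 8.66 ± 4.99 in saline (n = 4 each). Neighbouring groups in this order overlapped throughout, and the highest 7d value, 18.62, exceeded the lowest saline 3d value, 15.68. Without replicate 6, saline 3d was 23.0 ± 8.40 (n = 3), and its highest sample then lay below every cell-treated 3d sample. The median of saline 3d moved less, from 26.6 to 21.1.

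The ratio of means of MABsallo to saline at 3d was 3.36 and rose to 30.7 without saline replicate 6. That of MABsallo-VEGF to saline was 1.74, and 20.3 without saline replicate 6 and MABsallo-VEGF replicate 4. On the scale of log2(normalized count + 1), which understates changes of low genes, Cd34 was 3.31 higher after MABsallo than after saline (SE 0.98, limma), and 4.57 (SE 0.73) over 22 samples. After MABsallo-VEGF it was 2.21 higher than after saline (SE 0.98), and 4.18 (SE 0.78) over 22 samples. Both comparisons share the saline samples.

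MABsallo-VEGF minus MABsallo at 3d was -1.10 on the log2 scale (SE 0.98), and -0.39 over 22 samples. Whether reads of the tag could be counted on rat Cd34 was not tested.

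Cd34 lay high among the log2 fold changes of the 3d comparisons, but other genes lay higher. Of 16287 genes tested, 581 had a larger log2 fold change than Cd34 after MABsallo and 864 after MABsallo-VEGF. Over 22 samples these were 333 and 386 of 16281. Within each library, Cd34 stood above 74.2% to 93.0% of genes after MABsallo and 67.9% to 88.1% after MABsallo-VEGF at 3d, and above 55.2% to 64.1% in the 7d samples. In saline 3d it stood above 63.0% to 65.6% of genes in 3 samples and above 88.6% in replicate 6.

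The depth behind these values differed strongly. Cd34 had 32 to 251 reads per sample after MABsallo at 3d, 13 to 94 after MABsallo-VEGF and 4 to 224 after saline. In the 7d samples it had 1 to 6 reads. MABsallo 3d replicate 2 had 251 reads (exact 95% Poisson interval 221 to 284) and replicate 4 had 32 (21.9 to 45.2), so cell-treated replicates differed beyond counting error. At 7d the interval of 1 read ran from 0.0253 to 5.57 and that of 6 reads from 2.20 to 13.1, which overlap. Summed over a group, the 7d reads were 12 after saline, 13 after MABsallo and 15 after MABsallo-VEGF, or 0.514, 0.484 and 0.630 CPM (reads scaled by the library total). The corresponding 3d sums were 243, 436 and 227 reads, or 12.2, 32.1 and 15.0 CPM. These intervals cover counting error only.

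From 3d to 7d Cd34 was lower in each treatment. The 3d mean was 66.5 times the 7d mean after MABsallo, 30.8 times after MABsallo-VEGF and 24.2 times after saline, the last falling to 2.66 without replicate 6. The 3d minus 7d difference was 5.74 on the log2 scale after MABsallo, 4.52 after MABsallo-VEGF and 2.68 after saline (SE 0.98 each). Over 22 samples they were 5.74, 5.23 and 1.41 (SE 0.67, 0.73 and 0.73). After MABsallo the lowest 3d sample, 173.6, lay above the highest 7d sample, 16.6, and after MABsallo-VEGF the corresponding values were 57.88 and 18.62. In saline these values were 15.68, from 4 reads, and 14.94, from 6 reads, which is within counting error.

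At 7d no difference in Cd34 passed the test. MABsallo minus saline was 0.25 on the log2 scale (95% confidence interval -1.77 to 2.26, limma adjusted p = 1). MABsallo-VEGF minus saline was 0.37 (-1.65 to 2.39, limma adjusted p = 0.985), and MABsallo-VEGF minus MABsallo was 0.12 (-1.89 to 2.14, limma adjusted p = 1). Two-sided exact permutation tests gave p = 0.714, 0.571 and 0.771, where 4 against 4 samples can reach 0.0286. The confidence intervals rest on a spread pooled over all 24 samples, so the 7d reads alone do not set their width. Over 22 samples the intervals of the same comparisons, in the same order, were -1.15 to 1.65, -1.03 to 1.77 and -1.28 to 1.52. With 1 to 6 reads per sample, differences inside these narrower intervals were not excluded either. limma called 0 of 16287 genes (0.0%) in each of the 7d comparisons, with 1014, 1033 and 452 at an unadjusted p below 0.05. DESeq2 on the recovered reads called 0, 26 and 4, and edgeR called 0 in each.

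The libraries of the 3d groups also differed in composition. Genes that carry only a clone name of the assembly, 9050 in the table, took 18.0% to 29.9% of reads after MABsallo at 3d and 22.5% to 27.8% in MABsallo-VEGF replicates 1 to 3. They took 8.30% in MABsallo-VEGF replicate 4, 12.4% in saline replicate 6, 2.52% to 7.65% in the other saline 3d samples and 2.22% to 6.25% at 7d. The 10 most abundant genes took 25.5% to 37.2% of reads after MABsallo at 3d against 17.9% to 21.7% after saline, and ribosomal protein genes 3.55% to 5.64% against 5.37% to 6.79%. The clone-named share followed the order of Cd34 in MABsallo-VEGF 3d. It ran from 8.30% in replicate 4, with Cd34 at 57.88, to 27.8% in replicate 2, with Cd34 at 783.4. In saline 3d, replicate 6 was the highest and replicate 8 the lowest for both. The shares did not follow Cd34 in every group. MABsallo replicate 2, the highest for Cd34, had the lowest clone-named share, the lowest share in the 10 most abundant genes and the highest ribosomal share of its group, and the ribosomal share of saline replicate 6, 6.15%, lay within the range of the other saline samples. The part of these library differences in the Cd34 values was not tested.

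**Figure D2:**
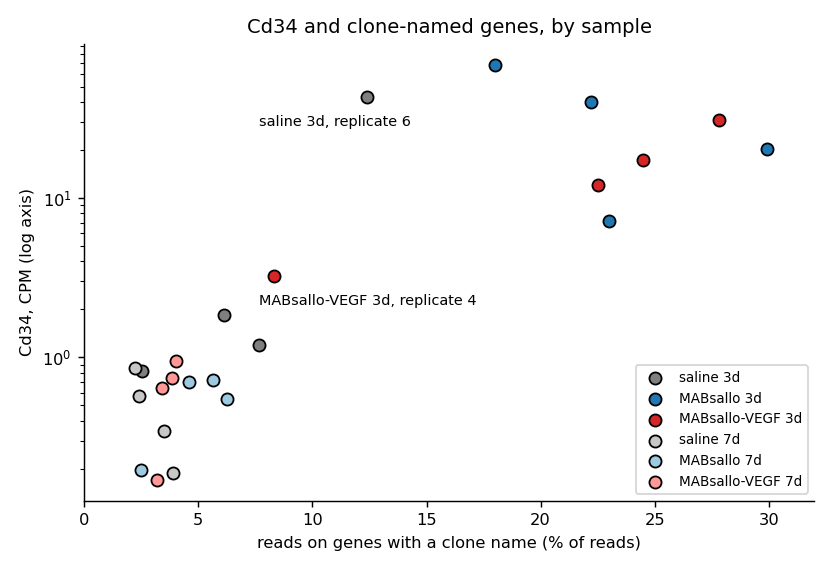
Cd34 in CPM (log axis) against the share of reads on clone-named genes (%) in each sample, coloured by group. The 7 cell-treated 3d samples other than MABsallo-VEGF replicate 4 lie at 18.0% or more, saline 3d replicate 6 lies at 12.4%, and the remaining 16 samples lie at 8.30% or less with Cd34 at 3.22 CPM or less.

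The RefSeq promoter of Cd34 (GRCr8, chr13:109008536-109008785, plus strand, the 250 bases before the gene's start) is shown as the regulatory region of the gene whose level differed between the groups. The capitals mark GGAA, the core that ETS factors of endothelial and blood cells bind.

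Cd34 promoter: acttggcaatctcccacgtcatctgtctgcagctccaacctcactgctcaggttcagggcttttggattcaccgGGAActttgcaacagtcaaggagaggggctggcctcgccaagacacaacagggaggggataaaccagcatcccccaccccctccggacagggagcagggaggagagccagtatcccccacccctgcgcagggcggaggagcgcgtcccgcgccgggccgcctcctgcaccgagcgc

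GGAA occurred 1 time on both strands together, while 93.2% of 33469 promoters of the same table held it at least once, with a median of 3 matches. The E-box CAGCTG and the GATA core AGATAA had 0 matches on either strand, and 12% and 10.3% of promoters held them. The GC content was 64.8%, against a median of 51.2% over all promoters. These matches are letters in a window and say nothing of binding.

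Podxl encodes podocalyxin, a close relative of CD34, which lines vessels and kidney podocytes. At 3d its normalized count was 540.6, 2101, 1237 and 1123 after saline (replicates 6, 8, 9 and 10), 312.4, 525.2, 452.4 and 466.5 after MABsallo, and 589.4, 666.8, 292.6 and 1060 after MABsallo-VEGF. Saline replicate 6, the saline sample highest for Cd34, was the lowest saline sample for Podxl, and every MABsallo sample lay below every saline sample. Podxl fell by 1.38 on the log2 scale after MABsallo (SE 0.35, limma adjusted p = 0.0152), and the difference was -1.73 over 22 samples (limma adjusted p = 0.000472). After MABsallo-VEGF the difference was -0.92 (SE 0.35, limma adjusted p = 0.166), and it passed over 22 samples at -1.55 (SE 0.32, adjusted p = 0.00255). At 7d the group means were 1380 ± 178, 1240 ± 323 and 1440 ± 439 (SD, n = 4 each) after saline, MABsallo and MABsallo-VEGF.

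Podxl2, which encodes endoglycan, the third member of the family, was low throughout. At 3d it was 34.9 ± 39.1 normalized counts after saline, 67.8 ± 32 after MABsallo and 57.5 ± 27.9 after MABsallo-VEGF (SD, n = 4 each). The highest saline value, 92.97, was again that of replicate 6. The difference of MABsallo from saline was 1.38 (SE 0.76, limma adjusted p = 0.218), and 2.03 over 22 samples (limma adjusted p = 0.0543). That of MABsallo-VEGF was 1.13 (limma adjusted p = 0.455), and 2.09 over 22 samples (limma adjusted p = 0.0773). The sign was that of Cd34, and the test was not passed in either set of samples.

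Emcn encodes endomucin, another sialomucin of capillary and venous endothelium. At 3d it was 940.0, 2524, 1976 and 1890 after saline, 397.6, 1592, 590.8 and 531.6 after MABsallo, and 870.5, 1050, 489.4 and 1460 after MABsallo-VEGF. In MABsallo, replicate 2 stood far above the other 3 samples of its group and above saline replicate 6. Emcn fell by 1.37 on the log2 scale after MABsallo (SE 0.37, limma adjusted p = 0.0196), and the difference was -1.66 over 22 samples (limma adjusted p = 0.00258). After MABsallo-VEGF the difference was -0.94 (SE 0.37, limma adjusted p = 0.180), or -1.46 over 22 samples (SE 0.39, limma adjusted p = 0.0126).

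Crk encodes an adaptor of the same family as CrkL, which binds the tail of CD34. Its 3d values were 82.64, 0, 3.574 and 10.56 after saline, 291.1, 218.8, 387.7 and 27.12 after MABsallo, and 27.04, 300.0, 126.1 and 22.26 after MABsallo-VEGF. As for Cd34, saline replicate 6 was far above the other saline samples. Crk rose by 4.32 on the log2 scale after MABsallo (SE 1.25, limma adjusted p = 0.0248), and was 3.12 after MABsallo-VEGF (SE 1.25, limma adjusted p = 0.184). Over 22 samples these were 5.44 (limma adjusted p = 0.00301) and 4.77 (limma adjusted p = 0.0150).

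**Figure D3:**
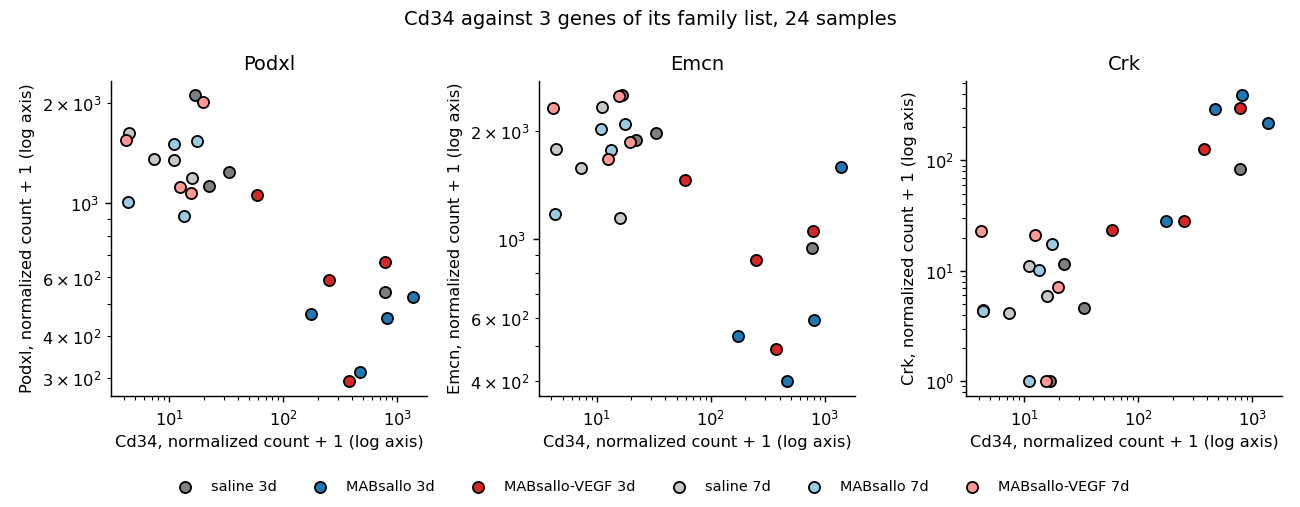
Normalized count + 1 of Podxl, Emcn and Crk against that of Cd34 in 24 samples, both on log axes, coloured by group. Over 24 samples Pearson's r on the log2 scale was -0.83 for Podxl, -0.69 for Emcn and 0.82 for Crk, with the 3d cell-treated samples at the right of each panel.

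Over the 12 samples of 3d, r with Cd34 was -0.81 for Podxl, -0.62 for Emcn and 0.92 for Crk, and over the 12 of 7d it was 0.00, 0.15 and -0.04. With 1 to 6 reads of Cd34 per sample at 7d, a relation there was not detectable. The 3d values hold the differences between groups, and for deviations from the group means over 24 samples r was -0.52, -0.24 and 0.59.

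The list of Cd34 relatives, adaptors, selectins and glycan enzymes held 26 genes beside Cd34. Crkl was not in the table, Madcam1, Cd300lg, Chst2 and Chst4 had a mean below 2, and 21 were tested. After MABsallo 1 rose (Crk) and 3 fell (Selp, Podxl and Emcn), against 9.4% of all genes called higher and 2.86% called lower. The median log2 fold change was -0.41, against 0.07 over all genes. Selp, which encodes P-selectin of platelets and endothelium, fell by 1.47 (SE 0.41, limma adjusted p = 0.0212). Over 22 samples 1 rose (Crk) and 5 fell (Podxl, Emcn, Selp, Gcnt1 and St3gal6), against 13.8% and 4.36% of all genes. After MABsallo-VEGF 0 of the 21 were called by limma, 5 had an unadjusted p below 0.05, and 0.0307% of all genes were called, all higher. In that comparison over 22 samples Podxl and Emcn fell, and Crk and St3gal3, which encodes a sialyltransferase, were among the genes that rose, against 2.19% of all genes called lower and 11.4% called higher.

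Of 27 endothelial genes tested, 8 fell after MABsallo (Aplnr, Plvap, Lyve1, Rasip1, Tie1, Cldn5, Esam and Clec14a) and 0 rose, against 2.86% and 9.4% of all genes. The median was -0.90 on the log2 scale against 0.07 over all genes. Plvap, which forms the diaphragms of fenestrated capillaries, fell by 1.55 (SE 0.51, limma adjusted p = 0.0432), and Tie1, a receptor of vascular and lymphatic endothelium, fell by 1.33 (SE 0.33, limma adjusted p = 0.0142). Saline replicate 8 held the highest Plvap value, 6918, against 1147 to 2048 in the other saline samples. The VEGF receptor Kdr was 1100 ± 113 normalized counts after saline, 689 ± 76.3 after MABsallo and 708 ± 246 after MABsallo-VEGF at 3d (SD, n = 4 each), and its differences of -0.67 and -0.69 (SE 0.27 each) did not pass limma's test (adjusted p = 0.0864 and 0.170). Cdh5, the cadherin of endothelial junctions, differed by -0.33 (SE 0.31) after MABsallo. Prox1, the lymphatic transcription factor, was 52.7 ± 37.8 after saline and 216 ± 70.2 after MABsallo (SD, n = 4 each), a difference of 2.28 (SE 0.86) that did not pass (limma adjusted p = 0.0738), and it passed over 22 samples at 2.72 (limma adjusted p = 0.0323). After MABsallo-VEGF 0 endothelial genes were called by limma in 24 samples, with 7 at an unadjusted p below 0.05. Over 22 samples 1 rose (Prox1) and 5 fell (Sox7, Plvap, Rasip1, Tie1 and Esam), against 11.4% and 2.19% of all genes.

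Summed over the 28 endothelial genes in the table, the level was 26400 to 55518 normalized counts per sample after saline at 3d, 13412 to 26271 after MABsallo and 17200 to 38113 after MABsallo-VEGF. Pecam1 was not in the table and Robo4 was listed at 0 in all samples. In whole tissue fewer cells of a type and less RNA per cell cannot be told apart.

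Other tissue markers moved in the same comparison. Of all genes, 9.4% were called higher and 2.86% lower after MABsallo, and 13.8% and 4.36% over 22 samples. After MABsallo the 4 striated muscle genes tested were all higher than after saline, with a median of 1.40 and Tnnt3 called, and over 22 samples the median was 1.03 and 0 were called. All 6 genes of the urothelium and squamous epithelium list were higher, with a median of 1.33 and the basal keratin Krt14 called, as it also was over 22 samples. The summed level of these 6 genes had nearly the same median, 12930 normalized counts after saline and 13129 after MABsallo at 3d. That sum ran from 772 to 16589 over the saline samples and from 9694 to 29522 after MABsallo. The 3 red cell genes were all lower, with a median of -1.06 and 0 called, and over 22 samples -2.20 with Hbb called. After MABsallo-VEGF the medians of these lists were 0.69, 0.95 and -1.47, with 0 called. The smooth muscle and leukocyte medians after MABsallo were -0.10 and -0.01, with 0 called. The part of these markers in the Cd34 and endothelial values was not tested.

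Among adventitial fibroblast genes, another cell class that carries CD34, 6 of 18 fell after MABsallo (Gli1, Fbln1, Dpp4, Lum, Gsn and Dcn) and 0 rose, against 2.86% and 9.4% of all genes. The median was -1.20, against 0.07 over all genes. Gli1, a hedgehog target of perivascular progenitors, fell by 2.38 (SE 0.50, limma adjusted p = 0.00717). Pdgfra and Pi16, defining markers of the list, differed by -0.72 (SE 0.47) and 0.12 (SE 0.48) and were not called. After MABsallo-VEGF 0 were called by limma, with 6 at an unadjusted p below 0.05.

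Among satellite cell genes 2 of 15 rose after MABsallo (Pax3 and Pax7) and 1 fell (Spry1). At 9.4% higher and 2.86% lower over all genes, these shares lie near the background. Pax7, the transcription factor that marks quiescent satellite cells, was 7.82 ± 9.03 after saline, 49.8 ± 38.4 after MABsallo and 37.0 ± 32.2 after MABsallo-VEGF at 3d (SD, n = 4 each). It rose by 2.96 on the log2 scale after MABsallo (SE 0.99, limma adjusted p = 0.0455), a call that ended under quantile normalization (adjusted p = 0.0946), under scaling to the same total (adjusted p = 0.0608) and under TMM scaling (adjusted p = 0.0523). Over 22 samples it was 3.64 (limma adjusted p = 0.00871). After MABsallo-VEGF it was 2.29 (SE 0.99, adjusted p = 0.222), and 3.71 over 22 samples (limma adjusted p = 0.0150).

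Of 18 genes of mast cells and haematopoietic progenitors, 7 fell after MABsallo (Cpa3, Hdc, Tpsb2, Tpsab1, Fcer1a, Cma1 and Ms4a2), and 1 rose (Mecom), against 2.86% and 9.4% of all genes. The median was -0.82, against 0.07 over all genes. The summed level of the 19 genes in the table did not fall, with a median of 8792 normalized counts after saline and 12272 after MABsallo. Runx1, a factor of blood progenitors that was added after its values were seen, was 2740 ± 558 after saline and 5200 ± 1730 after MABsallo (SD, n = 4 each). Cpa3, the mast cell carboxypeptidase, was 329 ± 363 normalized counts after saline, 7.78 ± 10.4 after MABsallo and 54.2 ± 60.8 after MABsallo-VEGF at 3d (SD, n = 4 each; limma adjusted p = 0.0059 and 0.162). Hdc, which makes histamine, was listed at 0 in all 4 MABsallo 3d samples and was at least 12.2-fold lower than after saline, with the limit at 3 reads over the group. Kit, the receptor shared by mast cells and progenitors, was -0.15 (SE 0.46) and not called.

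Of the pericyte and mesoangioblast genes 2 of 14 rose after MABsallo (Notch3 and Itga4) and 2 fell (Foxc2 and Anpep), against 9.4% and 2.86% of all genes. Itga4, an integrin chain of leukocytes and progenitors, was 52.6 ± 61.1 after saline, 336 ± 131 after MABsallo and 262 ± 166 after MABsallo-VEGF at 3d (SD, n = 4 each), and rose by 3.45 after MABsallo (SE 0.98, limma adjusted p = 0.0232). Over 22 samples its differences from saline were 4.22 after MABsallo (limma adjusted p = 0.00177) and 4.32 after MABsallo-VEGF (limma adjusted p = 0.00336), against 2.65 in 24 samples (limma adjusted p = 0.158). Alpl, the alkaline phosphatase on which the cells had been sorted, was 216 ± 77.7, 387 ± 179 and 301 ± 185 in the same order (SD, n = 4 each), and was not called.

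Of the 10 VEGF ligands and receptors 0 were called by limma in either 3d comparison, with 4 after MABsallo and 1 after MABsallo-VEGF at an unadjusted p below 0.05. Vegfa, the gene of the vector, was 1036, 1117, 957.8 and 1172 after saline at 3d, 2002, 1565, 2262 and 1334 after MABsallo, and 1352, 1167, 1292 and 618.9 after MABsallo-VEGF. Every MABsallo sample lay above every saline sample, and the VEGF group did not. Whether reads of the vector's VEGF165 could be counted on rat Vegfa was not tested, so these values cannot show whether the vector was expressed. Its log2 differences from saline were 0.72 after MABsallo (SE 0.26, limma adjusted p = 0.0629) and -0.01 after MABsallo-VEGF (SE 0.26, limma adjusted p = 0.991). Over 22 samples they were 0.70 (limma adjusted p = 0.0476), under the threshold of 1 for a call, and 0.23 (limma adjusted p = 0.614).

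**Figure D4:**
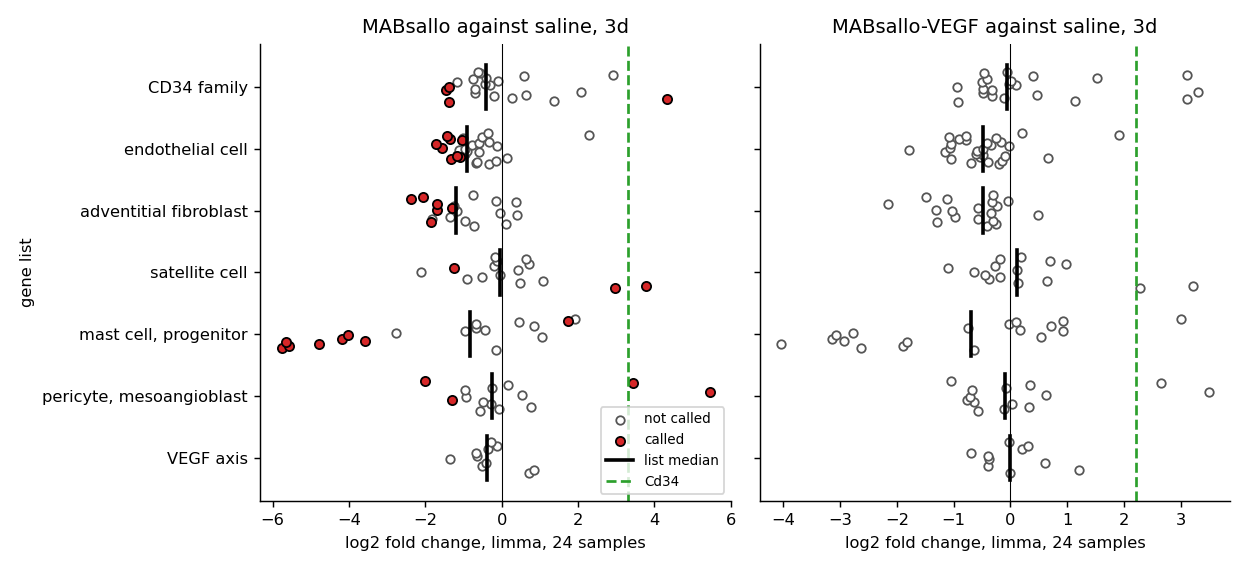
log2 fold change against saline at 3d (limma, 24 samples) of each tested gene of the 7 lists, with filled points for called genes, bars for list medians and a dashed line for Cd34. Cd34 lies at 3.31 after MABsallo and 2.21 after MABsallo-VEGF, to the right of every list median, and no list gene is called after MABsallo-VEGF.

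In all, 33 of 120 list genes were called after MABsallo, 6 higher and 27 lower, against 9.4% and 2.86% of all genes. Over 22 samples 42 were called, against 13.8% of all genes called higher and 4.36% lower, among them 1 higher and 10 lower of the endothelial list, 0 and 7 of the adventitial list, 2 and 3 of the satellite list, 1 and 7 of the mast cell list, and 2 and 3 of the pericyte list. After MABsallo-VEGF 0 of the 120 were called by limma, 34 had an unadjusted p below 0.05, DESeq2 called 4 and edgeR 0. Over 22 samples limma called 29, against 11.4% of all genes called higher and 2.19% lower. The adventitial list held 0 higher and 4 lower, and the satellite list 2 and 1. The mast cell list held 2 and 5, and the pericyte list 2 and 2. The calls depended on the fit. With only the 8 samples of the MABsallo comparison, 0 were called by limma. Leaving out saline replicate 8 left 5 calls, saline replicate 9 left 17, MABsallo replicate 1 left 10 and MABsallo replicate 3 left 14. For MABsallo-VEGF, 13 were called without saline replicate 6 and 12 without MABsallo-VEGF replicate 4. The split of all calls moved with scaling, from 76.7% higher (1531 higher, 466 lower) to 52.1% (1109 and 1021) when samples were scaled to the same total, and to 56.2% under quantile normalization. These scalings shifted the median of all genes after MABsallo from 0.07 to -0.19 and -0.14. The endothelial median was then -1.17 and -1.12 and the CD34 family median -0.58 and -0.64, so both stayed below that of all genes.

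The genes most like Cd34 over the 24 samples were sought among 11168 genes with a mean normalized count of at least 50. Correlations of log2(normalized count + 1) over samples are a description, since the samples share groups and library composition. The highest Pearson's r were those of Pds5a (0.97), AABR07068341.1 (0.96), N4bp2 (0.96), Dpysl3 (0.96), Ppfia1 (0.96), Wdfy3 (0.95), Trpm7 (0.95), Jak1 (0.95), RGD1311703 (0.95) and Slc8a1 (0.95). None of the 10 belonged to the fixed lists. Pds5a encodes a cohesin regulator, Dpysl3 a protein of growing axons, Wdfy3 an autophagy scaffold, Trpm7 a cation channel with a kinase domain, Jak1 a cytokine receptor kinase and Slc8a1 a sodium-calcium exchanger. Over the 12 samples of 3d alone the r of these 10 genes ran from 0.89 (Ppfia1) to 0.97 (Wdfy3), and over the 12 of 7d from 0.15 (Jak1) to 0.85 (Ppfia1). The lowest r were those of Ppp6r3 (-0.94), Cnot10 (-0.94), Prim1 (-0.92), Rab11b (-0.92) and Gsk3a (-0.92).

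Pds5a followed the order of Cd34 within the 3d groups only in part. It was 747.2, 47.04, 92.92 and 91.5 after saline, 2386, 1001, 1791 and 618.4 after MABsallo, and 876.0, 1309, 1039 and 151.4 after MABsallo-VEGF. Saline replicate 6 was the highest saline sample and MABsallo-VEGF replicate 4 the lowest of its group, as for Cd34, while MABsallo replicate 1 and not replicate 2 was the highest of its group. At 7d Pds5a was 11.68 to 82.78. Dpysl3 was 3.92 to 42.23 in saline 3d replicates 8, 9 and 10 and 816.1 in replicate 6.

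**Figure D5:**
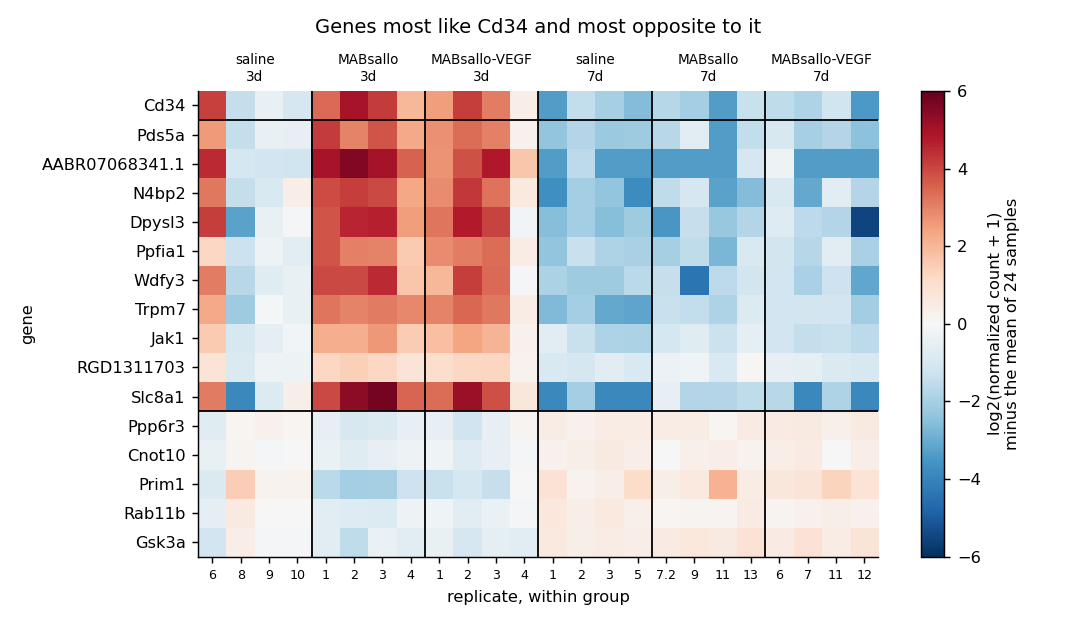
log2(normalized count + 1) minus the gene's mean over 24 samples, for Cd34, the 10 genes with the highest and the 5 with the lowest correlation with it (rows), in samples ordered by group (columns). Saline 3d replicate 6 lies above the mean for Cd34 and the 10 like genes and below it for the other 5, as the MABsallo 3d samples do, and MABsallo-VEGF 3d replicate 4 lies nearer to the mean than each other sample of its group in 15 of 16 rows.

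Correlations of both signs with Cd34 were common. In all, 271 genes had r above 0.9 and 16 below -0.9, 25.8% of genes were above 0.5 and 23.5% below -0.5, and the median over the 11168 genes was -0.09. The lists did not lie above it by much or at all, with a median r of -0.27 for the endothelial list, -0.08 for the CD34 family, -0.30 for adventitial fibroblasts, 0.07 for satellite cells, 0.13 for mast cells and progenitors, -0.13 for pericytes and 0.10 for the VEGF axis. When deviations from the group means were used, the highest r were those of Scfd1 (0.89), Emc2 (0.87), RGD1311703 (0.87), Hist2h2aa2 (0.85) and Dpysl3 (0.85), and 5 of the 10 genes were shared with the first ranking. Over the 12 samples of 7d alone, where Cd34 has 1 to 6 reads, 1 of the 10 was shared, Ppfia1. Over 22 samples 8 were shared.

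The genes that flank Cd34 in the RefSeq order of GRCr8 showed smaller differences. Plxna2, a semaphorin receptor on one side, was 521 ± 171 after saline, 902 ± 171 after MABsallo and 704 ± 285 after MABsallo-VEGF at 3d (SD, n = 4 each). Its log2 difference after MABsallo was 0.83 (SE 0.28, limma adjusted p = 0.0450), under the threshold of 1 for a call. Mir205, on the same side, was 0 to 267.2 normalized counts over the 3d samples, and Mir29b2 and Mir3556b on the other side were listed at 0 in all samples. Cd46, the next protein-coding gene there, which was added after its values were seen, was 23.0 ± 11.5, 33.2 ± 16.4 and 48.4 ± 31.2 in the 3 groups (SD, n = 4 each), with limma adjusted p = 0.610 and 0.490 against saline. A RefSeq gene without a given name, LOC102550245, overlaps Cd34, and since the strand setting of the counting is not given in the sources used here, its reads cannot be told apart from those of Cd34.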

How the data were processed

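The authors sequenced 3′ mRNA libraries of rat urethra (QuantSeq, reads of 50 bases), trimmed them with fastq-mcf 1.05 and used HISAT2 for alignment to Rnor6.0. Only uniquely mapped reads were kept, HT-seq Count 2.7.14 assigned them to genes, and each sample's gene counts were divided by its size factor from DESeq2 (versions per the submitters' processing notes). The deposited signal is that normalized gene count, for 32883 genes and 24 samples. All of its values (100%) were whole multiples, within 1e-06, of what 1 read is worth in that sample, so the reads were recovered. Groups and replicate numbers were taken from the labels.

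Here log2(normalized count + 1) of genes with a mean of at least 2 was fitted over the 6 groups with limma 3.58.1 in R 4.3.3 (trend, two-sided, Benjamini-Hochberg adjustment over all genes). Genes were called where the adjusted p was below 0.05 and the log2 fold change exceeded 1 in size. DESeq2 1.42.0 and edgeR 4.0.16 were run on the recovered reads as alternatives. In simulated data for the MABsallo comparison at 3d, limma recovered 191 of 200 genes changed by 2 on the log2 scale among 16096. There, limma also called 28 unchanged genes. Recovery in the measured samples, with their own spread and the libraries that stood apart, was not tested. The named genes are Cd34, Vegfa, the genes of the CD34 family list, the 10 highest and 5 lowest in correlation with Cd34, the 5 highest for deviations from group means, called members and defining markers of the other lists, and the 2 genes on either side of Cd34. Cd34 and these lists were chosen with earlier results of these data known. The result of 1 list gene is not reported here. Other alternatives were a pseudocount of 5, other filters and scalings, a fit of only the groups compared, weights for sample quality, the replicate block, 22 samples and leaving out each sample in turn.

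MABsallo and MABsallo-VEGF at 3d share replicate numbers 1 to 4. The deviations of same-numbered samples correlated at 0.22, 0.15, 0.07 and 0.25. Not every pair passed 0.1, and the numbers were not taken to pair samples. Samples with different numbers were not compared in this way, so the check cannot exclude a pairing. Cd34 ran from high to low in the order of replicates 2, 3, 1 and 4 in both groups. No genome of the authors' build was used, and the promoter is from RefSeq's GRCr8.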

Additional observations from a re-analysis of the deposited data

Results flagged for a closer look

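In 36 of 180 groups of 4 samples (30 genes in 6 groups), a sample lay apart from the other 3 by more than Dixon's 95% limit for its gap over the range, which chance alone passes in about 1 group in 20 for normally distributed values. In 10 of the 36 the other 3 samples were at 0, where any value above 0 passes the limit. Of the 36, 11 were saline 3d replicate 6, where Cd34 was 771.3 against 15.68 to 32.16, Podxl2 92.97, Crk 82.64, Pds5a 747.2, AABR07068341.1 223.8, N4bp2 495.8, Dpysl3 816.1, Wdfy3 767.9, Trpm7 850.5, Jak1 1160 and Slc8a1 127.4 normalized counts. The genes most like Cd34 were ranked with that sample included, so their high values there are not separate observations. The comparisons above give the main results also without this library.

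In other 3d samples, MABsallo replicate 2 held Emcn at 1592 and Selp at 508.8, MABsallo replicate 3 held Prox1 at 110.8, below the other 3, saline replicate 8 held Gcnt1 at 2465 and Plvap at 6918, and MABsallo-VEGF replicate 4 held Prim1 at 1603.

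At 7d, saline replicate 2 held Plvap at 3102, Ppp6r3 at 3756 (low), and St3gal3, AABR07068341.1 and Slc8a1 at 2.489 each, which is 1 read where the other samples had none. Saline replicate 3 held Gcnt1 at 3299 and replicate 5 held Prox1 at 9.433. In MABsallo, replicate 7.2 held St3gal3 at 3.097 and Slc8a1 at 9.292, replicate 9 held Vegfa at 1146 and Pax7 at 3.311, replicate 11 held Ppp6r3 at 3408 (low) and Prim1 at 6838, and replicate 13 held AABR07068341.1 at 4.15. In MABsallo-VEGF, replicate 6 held AABR07068341.1 at 7.255, replicate 7 held Plxna2 at 798.7, replicate 11 held Prox1 at 9.31 and Pax7 at 3.103, and replicate 12 held Trpm7 at 40.98 (low).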

How the results depend on the processing

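At 7d the 60 fits of Cd34 over all settings passed the test 0 times, with adjusted p of 0.925 to 1, 0.872 to 1 and 0.999 to 1 for MABsallo against saline, MABsallo-VEGF against saline and MABsallo-VEGF against MABsallo (DESeq2 gave no adjusted p for the first). Leaving out each replicate moved these differences over -0.08 to 0.66, 0.04 to 0.85 and -0.29 to 0.60, and turned the sign in 5 fits: -0.08 without saline replicate 1 and -0.01 without MABsallo replicate 13 in the first, and -0.29, -0.03 and -0.15 without MABsallo replicate 11, MABsallo-VEGF replicate 6 and MABsallo-VEGF replicate 11 in the third. At 3d the difference of MABsallo from saline was 1.74 with DESeq2, 1.64 with edgeR and 2.73 to 4.57 with each replicate left out. That of MABsallo-VEGF from saline was 0.67 with edgeR, 4.18 over 22 samples and 1.63 to 3.48, and that of MABsallo-VEGF from MABsallo -1.65 to -0.39. Saline 3d minus 7d was 4.58 with DESeq2, 4.45 with edgeR and 1.41 to 3.26. The ranges for MABsallo and MABsallo-VEGF were 5.30 to 6.29 and 3.98 to 5.23. For MABsallo against saline, MABsallo-VEGF against saline and saline 3d against 7d, the ratios of group means were 3.36, 1.74 and 24.2. These ratios hold saline replicate 6 at its full value of 771.3, while limma averaged log2 values. The cause of the gaps between tools was not tested. With the replicate number as a block, which the check did not show to pair samples, MABsallo-VEGF minus MABsallo at 3d was -1.10 (SE 0.26). This fit held only the groups compared, where the SE without the block was 0.78, against 0.98 in the fit of all 24 samples. MABsallo was above MABsallo-VEGF in all 4 same-numbered pairs. No other paired analysis was possible because the other groups compared share fewer than 2 numbers. List genes called after MABsallo were 0 with only the groups compared and 5 to 42 with each replicate left out. After MABsallo-VEGF they were 1 with a pseudocount of 5, 24 with quality weights, 29 over 22 samples, 4 with DESeq2 and 0 to 13 with each replicate left out. The 10 genes most like Cd34 shared 5 with a Spearman ranking, 6 with a pseudocount of 5, 5 with deviations from group means, 1 with the 12 samples of 7d and 7 to 10 with each replicate left out. The 7d depth of 1 to 6 reads limits what could be seen there.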
